A study of Mus musculus with 6 samples.

Results

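Keratin-associated protein (Krtap) genes of the Krtap6, Krtap8, Krtap16 and Krtap21 families were followed in neonatal mouse skin in which the transcription factor Nrf2 was constitutively active. The 7 genes were Krtap6-1, Krtap6-2, Krtap6-3, Krtap6-5, Krtap8-1, Krtap16-3 and Krtap21-1. They were selected by family name, with their fold changes in this same comparison already known, so those fold changes are given as a description and no p-value is attached to them. All 7 were on the array, with 9 of the 45037 probe sets tested. Of these 9, 1 probe set is shared by Krtap6-1 with the genes Gm10228 and 1110025L11Rik. Back skin came from 3 female K5cre-caNrf2 mice, with the genotype written as tg/tg in the protocol and tg/g in the sample table, and from 3 female K5cre-wt mice (tg/wt), the controls. All 6 were of the same litter, killed on postnatal day 2.5, on a mixed FVB/N and C57BL/6 background. Both groups carry the K5cre designation, in which the promoter of keratin 5, a keratin of basal keratinocytes and of the outer layers of the follicle, drives the recombinase Cre. The sample table enters CaNrf2 as the treatment of the controls as well, and the groups were taken from the sample titles. Each mouse gave 1 array.

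The hair shaft is built by keratinocytes that leave the follicle matrix, fill with keratin filaments and then embed these filaments in Krtap proteins. Krtap families 6, 8, 16 and 21 belong in mice to the small proteins rich in glycine and tyrosine, while most other families are rich in cysteine and sulfur. The glycine-tyrosine type is best known from the cortex, the bulk of the fibre. Most genes of this type lie beside each other on mouse chromosome 16, and Hoxc13, a homeobox factor of the hair matrix, is a known regulator of Krtap16 genes in mice. At this age the first coat is still forming, and not all follicles yet make a shaft.

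The promoters are shown because the genes lie near each other on chromosome 16. RefSeq promoters of all 7 genes were found (assembly GRCm38.p6, 250 bases before to 50 bases after the annotated start), and all 7 hold the TATA box sequence TATAAA. On either strand that sequence occurs in 35 of 44 promoters of other Krtap genes and in 13.6% of all 32851 promoters in the table. Each sequence below spans 100 bases, 72 before the TATAAA and 28 from its first base on, read 5′ to 3′ on the strand of the gene, with TATAAA in capitals. Counted from the annotated start, its first base lies at -30 in Krtap16-3, -32 in Krtap6-5, -31 in Krtap6-3 and -29 in Krtap8-1. It lies further from that start in the others, at -69 in Krtap6-1, -61 in Krtap21-1 and -49 in Krtap6-2. In chromosomal order they cover chr16:88962876-88962975 (minus strand), chr16:89031558-89031657 (plus strand), chr16:89047904-89048003 (minus strand), chr16:89083921-89084020 (plus strand), chr16:89403808-89403907 (minus strand), chr16:89420133-89420232 (minus strand) and chr16:89487954-89488053 (minus strand).
Krtap16-3: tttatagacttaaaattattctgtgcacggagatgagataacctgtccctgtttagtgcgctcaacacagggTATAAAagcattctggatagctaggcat
Krtap6-1: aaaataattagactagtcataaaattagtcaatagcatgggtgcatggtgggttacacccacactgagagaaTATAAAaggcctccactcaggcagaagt
Krtap6-5: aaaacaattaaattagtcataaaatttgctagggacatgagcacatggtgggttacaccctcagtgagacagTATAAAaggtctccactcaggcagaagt
Krtap6-3: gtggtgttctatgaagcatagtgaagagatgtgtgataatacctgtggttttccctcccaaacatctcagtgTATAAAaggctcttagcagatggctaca
Krtap21-1: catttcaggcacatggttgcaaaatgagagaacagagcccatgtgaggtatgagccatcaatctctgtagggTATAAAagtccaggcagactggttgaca
Krtap6-2: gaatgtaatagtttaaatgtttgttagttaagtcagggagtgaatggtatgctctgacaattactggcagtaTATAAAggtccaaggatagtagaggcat
Krtap8-1: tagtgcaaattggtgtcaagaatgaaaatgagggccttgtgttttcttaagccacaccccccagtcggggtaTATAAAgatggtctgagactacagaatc

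Aligned on the TATA box without gaps, Krtap6-1 and Krtap6-5 shared 82 of 100 bases. The other 20 pairs of member promoters shared between 27 and 42 bases, and these include the pairs of Krtap6-1 with Krtap6-2 and Krtap6-3. The bases of TATAAA are shared in every pair by construction, and unrelated promoters were not compared. Gm10228, a gene without a Krtap name at chr16:89041475-89041574 (minus strand), shared 85 of 100 bases with Krtap6-1 and 82 with Krtap6-5. The window of Gm10228 is printed for comparison with that of Krtap6-1, with which it has a run of 45 identical bases in a row.
Gm10228: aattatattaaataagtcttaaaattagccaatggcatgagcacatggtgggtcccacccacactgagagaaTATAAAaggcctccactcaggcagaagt

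Some further motifs were sought on both strands of the 300-base promoters. The core TGACNNNGC of the antioxidant response element, the site that Nrf2 binds with small Maf proteins, was in 0 of the 7 member promoters, in 1 of 44 other Krtap promoters and in 12.4% of all promoters. CTTTGAA, a core bound by Lef1 and Tcf factors, was in 1 of 7, that of Krtap16-3, in 8 of 44 other Krtap promoters and in 5.14% of all promoters. GACGC, a Foxn1 core, was in 0 of 7, in 3 of 44 other Krtap promoters and in 27.2% of all. The letters TTTAATG, noticed while reading these sequences and searched afterwards, were in 4 of 7, those of Krtap6-1, Krtap6-5, Krtap16-3 and Krtap21-1, in 4 of 44 other Krtap promoters and in 3.41% of all. A match or its absence in this window says nothing on whether a factor binds.

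Intensities below are linear, not logged, and all log2 fold changes are caNrf2 over control with the standard error (SE) of a limma fit over all probe sets. Arrays were alike in distribution, with medians between 80.3 and 81.6, and pairs of arrays correlated at 0.9949 to 0.9962 (Pearson, log2) across groups and at 0.9973 to 0.998 within a group. Nfe2l2, the gene of Nrf2, read 1136, 1222 and 1242 in caNrf2 skin and 825, 726 and 774 in control skin, a log2 fold change of 0.63 ± 0.07 (limma, adjusted p = 0.00176), and a second, dim probe set was not called. Whether that probe set detects the transgene transcript was not tested. The tissue label held, since the epidermal keratins Krt5, Krt14 and Krt10 and the hair shaft keratin Krt35 averaged 11298, 13145, 20326 and 4600 in caNrf2 skin. In control skin the same genes averaged 11272, 12229, 19703 and 5490. In female skin 20 probe sets of Y-linked genes gauge the background, and their group means lay between 6.46 and 61.6, with 14 of them under 20 in both groups.

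All 9 probe sets read lower in each caNrf2 mouse than in any control mouse, and 7 of them were called lower, that is, had an adjusted p under 0.05 in limma with Benjamini-Hochberg adjustment over all probe sets. None was called higher. Over the whole array 0.633% of probe sets were called lower and 1.04% higher, and in 11.7% every caNrf2 array lay below every control array. Since this comparison chose the genes, nothing is read from these counts. The median log2 fold change of the 9 probe sets was -1.16, against -0.00 for all probe sets. As this is whole skin, fewer hair-forming cells and less RNA per cell cannot be told apart.

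**Figure D1:**
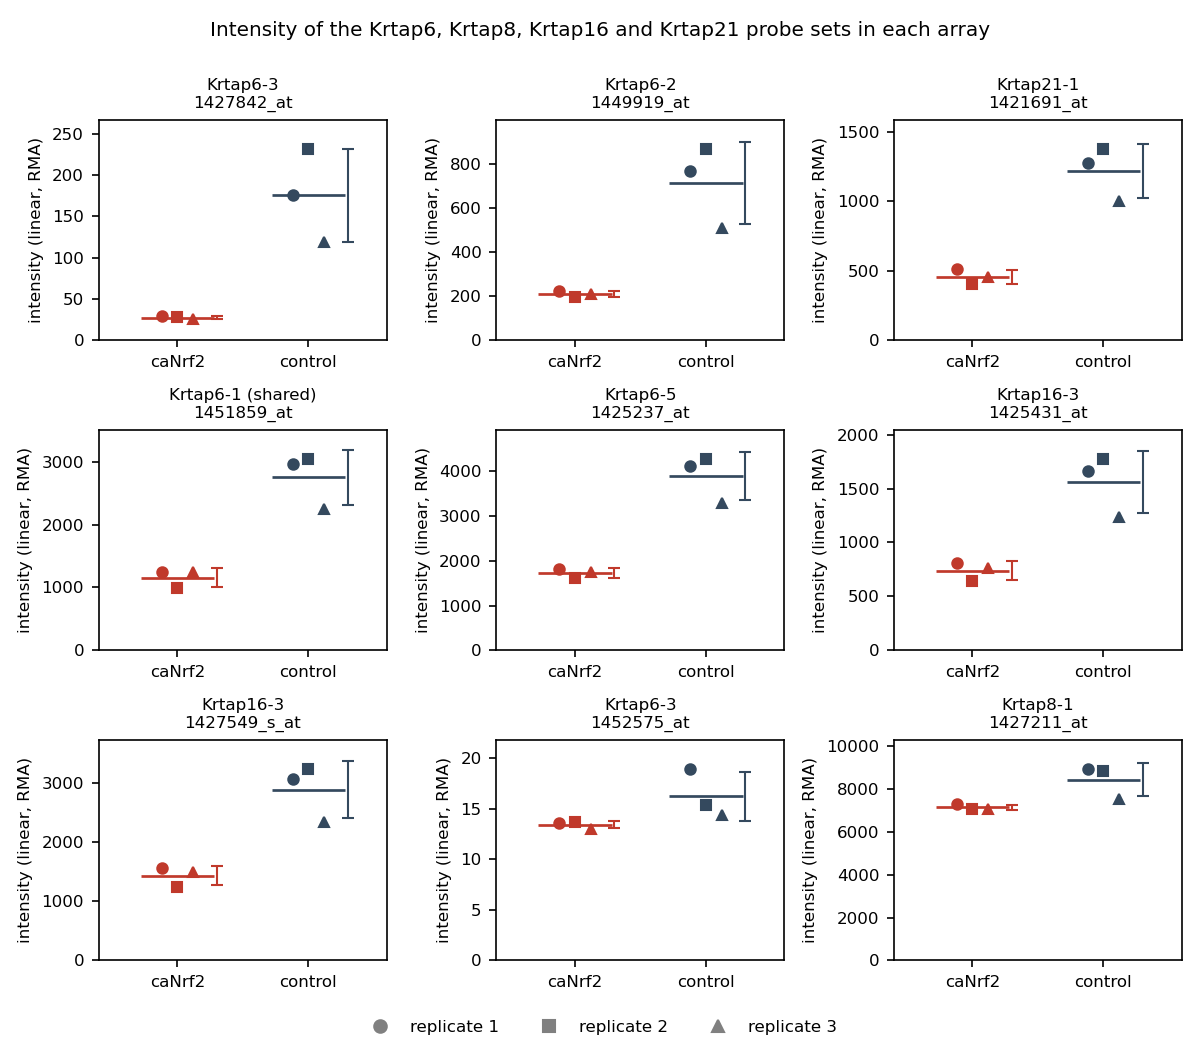
Intensity (linear scale, RMA) of each of the 9 probe sets in every array, caNrf2 left and control right, with horizontal lines for group means, bars for the SD (n = 3) and symbols for the replicate number. In each panel all caNrf2 points lie below all control points, and control replicate 3 is the lowest control; Krtap8-1 and the dim second probe set of Krtap6-3 show the smallest differences.

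Krtap6-1 codes for a glycine-tyrosine-rich shaft protein and shares its probe set. That probe set read 1246, 987 and 1240 in caNrf2 skin, against 2960, 3046 and 2241 in control skin. All caNrf2 mice were thus well below all controls, with a log2 fold change of -1.24 ± 0.13, or 42.3% of the control level. A second probe set, annotated to Gm10228 and so not counted among the 9, was designed on an accession that the RefSeq table lists under Krtap6-1. It read 565, 495 and 564 in caNrf2 skin and 1735, 1823 and 1249 in control skin, with a log2 fold change of -1.55 ± 0.13. Both probe sets thus gave the same direction and order of mice, with replicate 2 lowest in caNrf2 and replicate 3 lowest in control skin. Which of the related genes each one measures was not tested.

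Krtap6-5, the nearest promoter relative of Krtap6-1 among the 7, read 1821, 1608 and 1760 in caNrf2 skin and 4127, 4279 and 3279 in control skin. Its log2 fold change was -1.16 ± 0.10, close to that of the shared Krtap6-1 probe set. Krtap6-2, a glycine-tyrosine-rich protein whose promoter window is unlike that of Krtap6-1, read 222, 195 and 210 in caNrf2 skin, against 768, 869 and 508 in control skin. The groups were far apart, at 209 ± 13.5 in caNrf2 and 715 ± 186 in control skin (mean ± SD, n = 3), and the log2 fold change of -1.74 ± 0.17 was the lowest of the 7 genes apart from that of Krtap6-3.

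Krtap6-3 had 2 probe sets, both designed on the same accession, that disagreed. The brighter one read 29.5, 28.1 and 25.4 in caNrf2 skin and 175, 232 and 119 in control skin. Its log2 fold change of -2.62 ± 0.19 was the lowest of all probe sets on the array. The caNrf2 values lie within the background range, which leaves the size of this fall uncertain, and with log2(value + 16) it was -2.09. The dimmer one read 13.6, 13.7 and 13.04 in caNrf2 skin and 19.0, 15.3 and 14.3 in control skin, within that background range in all 6 mice, and was not called at -0.26 ± 0.10. The 2 estimates differed by 2.35 on the log2 scale. A probe set that reads background in both groups carries little about the gene, and which part of the transcript each detects was not tested.

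Krtap16-3 had 2 probe sets that gave nearly the same answer. One read 812, 643 and 760 in caNrf2 skin, against 1664, 1777 and 1235 in control skin, with a log2 fold change of -1.07 ± 0.14. The other, of a type whose probes match more than 1 transcript, read 1554, 1244 and 1486 in caNrf2 skin and 3067, 3233 and 2329 in control skin, at 49.9% of the control level. The 2 estimates differed by 0.06, and in both probe sets the mice stood in the same order. Unlike Krtap6-3, neither probe set is near the background range.

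Krtap21-1, which lies next to Krtap6-2, read 511, 408 and 454 in caNrf2 skin and 1274, 1377 and 1001 in control skin. Its level in caNrf2 skin was 37.8% of that in control skin, a log2 fold change of -1.40 ± 0.12. Krtap8-1 stood apart from the other 6 genes in the size of its difference. It was also the brightest of the member genes, and whether brightness bears on that size was not tested. It read 7292, 7082 and 7052 in caNrf2 skin, against 8944, 8818 and 7547 in control skin, so the lowest control lay just above the highest caNrf2 mouse. Its log2 fold change of -0.24 ± 0.08 was not called, and became a call with an intensity trend and robust variances. Its level in caNrf2 skin was 84.9% of control, where the called probe sets other than that of Krtap6-3, which read background in caNrf2 skin, kept between 29.9% and 49.9%.

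Mice within a group also differed in step. Control replicate 3 was the lowest control in 9 of 9 probe sets, and in 37.5% of all probe sets on the array. It lay below the mean of the other controls by a median of -0.42 on the log2 scale, against -0.01 over all probe sets. Among the genes this gap was -0.76 for the brighter Krtap6-3 probe set and -0.68 for Krtap6-2, and -0.23 for Krtap8-1, so the probe sets with the largest and the smallest caNrf2 effects were also at the ends for this control mouse. Control replicate 3 enters both quantities. Among caNrf2 mice, replicate 2 was lowest in 6 of 9 probe sets, and in 36.6% of all probe sets on the array. Replicate 3 was lowest in the other 3. Without control replicate 3 the log2 fold changes ran from -2.87 to -0.31, and 7 probe sets were again called.

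The order of the genes on chromosome 16 sets these values in context. The RefSeq table lists 58 protein-coding genes from Krtap24-1 to Krtap11-1, of which 28 were measured. Of the 16 measured from Krtap19-1 to Krtap6-2, 15 had a log2 fold change under -0.5 and 13 under -1, with a median of -1.28. The exception was Gm9789, at 0.05, whose highest array read 8.54, within the background range. No other gene between Krtap6-3 and Krtap21-1 was measured, so the run is not shown to be continuous there. This run holds 6 of the 7 member genes with the Krtap19 genes, Krtap22-2, Gm10229 and Gm10228. Krtap6-1 and Gm10228 are counted apart, though which of the related genes each of their probe sets measures was not tested. Whether other probe sets of the run also detect transcripts of neighbouring Krtap genes was not tested either. The 16 are therefore not shown to be separate measures. The 12 measured genes on either side lay between -0.36 and 0.40, with a median of -0.10. Of these, 2310079G19Rik, Krtap13, 2310034C09Rik and 2310057N15Rik stayed within the background range, with highest arrays of 26.3, 21.6, 12.5 and 9.05. Their values carry little about these genes, and they enter the median. On the near side Krtap15 and Krtap14 gave -0.09 and -0.07. On the far side Krtap8-1 was the gene next to Krtap6-2, and Krtap7-1 and Krtap11-1 beyond it gave -0.36 and -0.30. The ends of this run were placed after the values were seen, so the contrast is a description. Over the whole array 17 probe sets had a log2 fold change under -1. Of these, 7 were the members called, 7 others came from the same chromosome 16 genes, and the remaining 3 belonged to Krt12 and Acsl6.

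**Figure D2:**
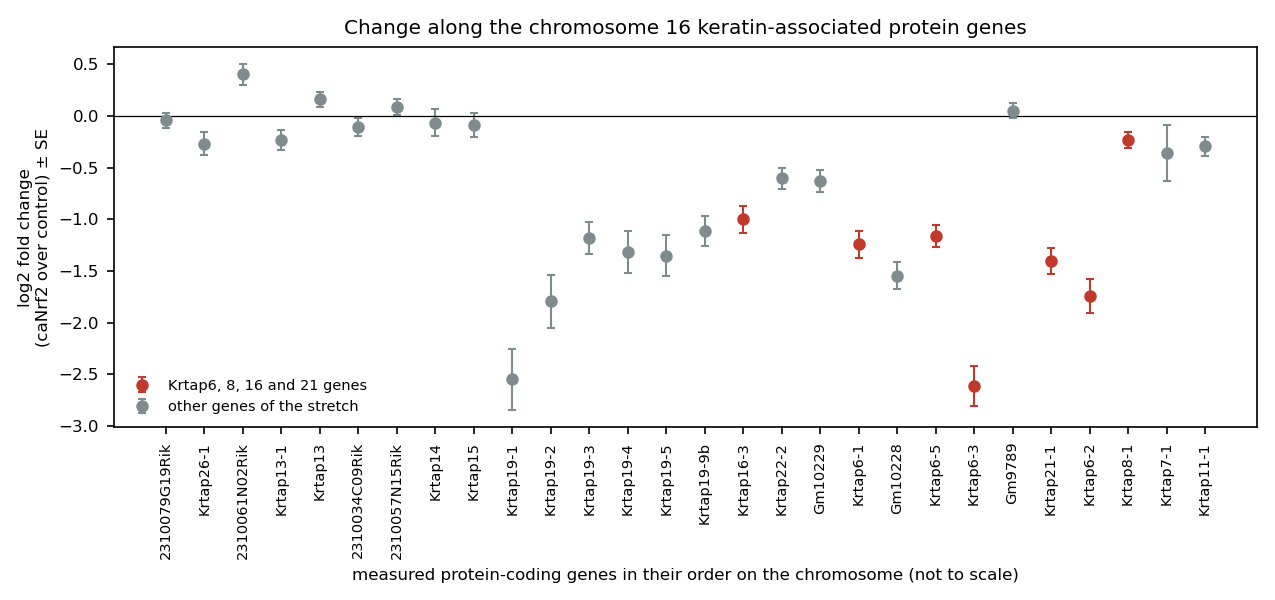
Log2 fold change (caNrf2 over control, ± SE, n = 3 mice each) of the 28 measured protein-coding genes in their order on chromosome 16, with the member genes in red and the others in grey, spacing not to scale. Among measured genes, values near or below -1 run from Krtap19-1 to Krtap6-2 and return to -0.24 at Krtap8-1. Exceptions in the run are -0.60 and -0.63 at Krtap22-2 and Gm10229 and 0.05 at the undetected Gm9789. Gm9789 was the only gene measured between Krtap6-3 and Krtap21-1. Krtap6-1 and Gm10228 are drawn apart, though which related genes their probe sets measure was not tested. Outside the run, 2310079G19Rik, Krtap13, 2310034C09Rik and 2310057N15Rik also stayed within the background range.

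Genes were also ranked by how like their profile over the 6 mice was to the mean of the 8 member probe sets that reached 100 on some array. Likeness was the root mean square difference of log2 deviations from the control mean, over 11460 genes. The profile rests on the same fold changes by which the members were chosen, and Krtap6-3 and Acsl6 reached 100 only in control skin, so the ranking is a description. The nearest were Krtap19-3 at 0.11, Krtap19-4 at 0.14, Krtap19-5 at 0.15, Krtap19-9b at 0.15 and Gm10228 at 0.17. Genes outside chromosome 16 followed, with Acsl6, an acyl-CoA synthetase, at 0.21, Scd3, a stearoyl-CoA desaturase of sebaceous glands, at 0.29 and Slc5a8, a monocarboxylate transporter, at 0.30. Scd3 gave a log2 fold change of -0.92 ± 0.11. Acsl6 averaged 47.2 in caNrf2 and 112 in control skin, and as the caNrf2 mean lies within the background range, the size of its difference and its place in the ranking are uncertain.

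Other hair genes were counted by list. In a fit with 1 probe set per gene, 1.39% of all genes were called lower and 2.26% higher, and the median log2 fold change was -0.00. Of 8 measured glycine-tyrosine-rich Krtap genes outside the 7, 7 fell, none rose and Krtap7-1 did not pass (-0.36, groups overlapping), with a median of -1.25. Krtap19-9b read 729 ± 87.1 in caNrf2 and 1594 ± 317 in control skin (mean ± SD, n = 3), and Krtap22-2 fell by 0.60 ± 0.10 (limma, adjusted p = 0.0106). Krtap19-1 and Krtap19-2 were called at -2.55 ± 0.30 and -1.80 ± 0.26. Of the list, 3 genes in place of 7 were called lower with an intensity trend and robust variances, and Krtap19-1 and Krtap19-2 were among the calls lost (limma, adjusted p = 0.0552 and 0.0839).

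Of the remaining 24 Krtap genes, most of them sulfur-rich, 7 fell, 1 rose and 16 did not pass, and the median was -0.31. At an unadjusted p under 0.05, 17 were lower and 1 higher. The share of all genes at that unadjusted level was not counted. Unadjusted counts of this and the following lists therefore have no base beside them, and nothing is read from them. The number that fell depended on single mice, with 16 without control replicate 3, 4 without caNrf2 replicate 1, and 2 without caNrf2 replicate 3, control replicate 1 or control replicate 2. It was 11 to 14 with log2(value + 16), the intensity minimum, the trend or array weights. Krtap4-2 and Krtap4-7 fell, at -0.62 ± 0.08 and -0.55 ± 0.08 (limma, adjusted p = 0.00215 and 0.00415). Krtap31-1 rose by 1.10 ± 0.14, with means of 46.0 in caNrf2 and 21.1 in control skin, both within the background range. Of 12 hair shaft keratins, which form the filaments that Krtap proteins embed, limma called none in either direction, while 7 were lower and none higher at an unadjusted p under 0.05, and their median was -0.22. With an intensity trend and robust variances 5 of them were called lower, and 3 without control replicate 3. Krt35 read 4600 ± 54.0 in caNrf2 and 5490 ± 288 in control skin (limma, adjusted p = 0.0549). The inner root sheath and companion layer guide the growing shaft. Of 9 genes of these layers, 7 were lower and none higher at an unadjusted p under 0.05, with a median of -0.22. After adjustment 3 fell, none rose and 6 did not pass. These were Krt26, Krt75 and Krt72, at -0.53 ± 0.08, -0.37 ± 0.06 and -0.33 ± 0.07, and Krt72 lost its call without 4 of the 6 arrays in turn, at limma adjusted p up to 0.126.

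Among 11 enzymes and structural proteins of the hardening shaft, 2 fell, 1 rose and 8 did not pass, with a median of -0.25. At an unadjusted p under 0.05, 7 were lower and 1 higher. Without control replicate 3, 5 were called lower, and 1 without caNrf2 replicate 2, caNrf2 replicate 3 or control replicate 1. Dsc2, a desmosomal cadherin, and Crym, a thyroid hormone-binding protein, fell, at -0.67 ± 0.07 and -0.42 ± 0.07, while Tgm3, a transglutaminase that cross-links hair and envelope proteins, rose by 0.42 ± 0.07 (limma, adjusted p = 0.0004, 0.0129 and 0.0101). Crym lost its call without 3 of the 6 arrays in turn, at limma adjusted p up to 0.0581. Of 22 regulators of the hair matrix, 13 were lower and none higher at an unadjusted p under 0.05, with a median of -0.18. After adjustment 3 fell, none rose and 19 did not pass. The 3 were the homeobox gene Dlx4 (-0.45 ± 0.07), the ETS factor Elf5 (-0.51 ± 0.08) and the signal Shh (-0.28 ± 0.06; limma, adjusted p = 0.0359). Shh did not keep its call when an array, whichever of the 6, was left out, or with the replicate block, at limma adjusted p up to 0.129. Hoxc13, singled out after its values were seen, read 381 ± 12.8 in caNrf2 and 437 ± 57.3 in control skin, with overlapping groups and a log2 fold change of -0.19 ± 0.09 (limma, adjusted p = 0.285). Foxn1, a factor needed for shaft keratinization and also singled out, gave -0.18 ± 0.08 with overlapping groups (limma, adjusted p = 0.216).

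Over these 6 lists 22 of 86 genes fell and 2 rose, where 1.39% of all genes were called lower and 2.26% higher. The lists were chosen with earlier results of these data known, so these counts are a description. The number that fell moved with single mice. It was 36 without control replicate 3, 14 without control replicate 1 and 14 without caNrf2 replicate 3. In control replicate 3 the median deviation from the control mean was -0.28 for the 9 probe sets and -0.43 for the other glycine-tyrosine-rich Krtap genes, -0.21 for the remaining Krtap genes, -0.16 for hair shaft keratins and -0.02 for inner root sheath and companion layer genes. In caNrf2 mice the median of the 9 probe sets lay between -1.27 and -1.09, and that of hair shaft keratins between -0.26 and -0.16.

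**Figure D3:**
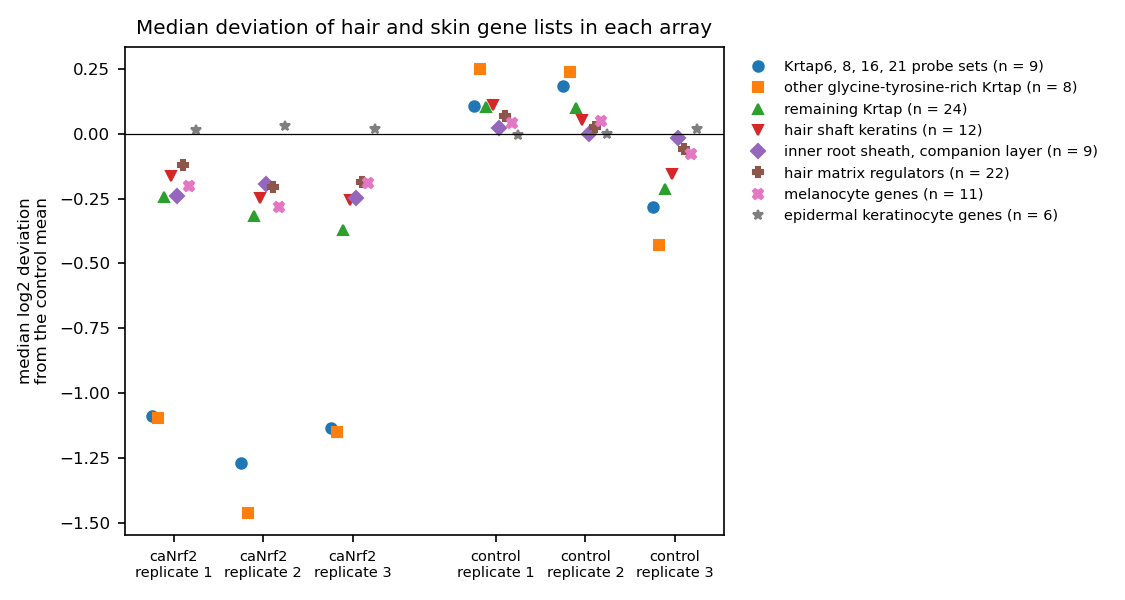
Median log2 deviation from the control mean in each array, caNrf2 left and control right, for the 9 member probe sets and for gene lists with 1 probe set per gene (n in the legend). The members and the other glycine-tyrosine-rich Krtap genes lie between -1.46 and -1.09 in the caNrf2 mice, the other hair lists and melanocyte genes between -0.37 and -0.12, and epidermal keratinocyte genes near 0.

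Markers of other skin cells were read beside these values. Of 11 melanocyte genes all lay below 0 and 3 were called lower, their summed intensity being 11391 to 12390 in caNrf2 and 13197 to 14016 in control skin. Mitf, Mlana and Gpr143 were the 3 called, and each call was lost under 7 or 8 of 12 alternatives. Of 9 dermal papilla genes limma called none, with 3 lower at an unadjusted p under 0.05 (summed intensity 4400 to 4515 in caNrf2, 4617 to 4880 in control skin). Of 4 sebocyte genes, Scd3 and Elovl3 fell and Fads2 rose, with sums of 1135 to 1200 in caNrf2 and 1401 to 1549 in control skin. Fads2 lost its call without 4 of the 6 arrays in turn and Elovl3 without 2, at limma adjusted p up to 0.0746 and 0.0675. Of 6 epidermal keratinocyte and 6 fibroblast genes none was called, nor past an unadjusted p of 0.05, with medians of 0.03 and -0.05. The keratinocyte genes summed to 84745 to 85461 in caNrf2 and 82618 to 83205 in control skin, and the fibroblast genes to 68967 to 70496 in caNrf2 and 71072 to 73629 in control skin. Of 6 skeletal muscle and 6 leukocyte genes none was called, with 0 and 1 lower at an unadjusted p under 0.05, and of 4 adipocyte genes Lep fell. The part of these cells in the Krtap differences was not tested. The log2 ratio of 3′ to 5′ Actb probe sets, a sign of RNA quality, was 0.525 ± 0.011 in caNrf2 and 0.493 ± 0.012 in control skin (SD, n = 3). An exact permutation test, two-sided, gave p = 0.1, the smallest this design can reach, and the same ratio for Gapdh was -0.180 ± 0.024 in caNrf2 and -0.211 ± 0.010 in control skin, with overlapping groups (exact permutation p = 0.2). The part of RNA quality was not tested.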

How the data were processed

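RNA of whole back skin from 6 separate mice was hybridised to Affymetrix arrays. The authors deposited RMA intensities, not logged, per the submitters' processing notes and the values; the RMA version is not given in the sources used here. RMA equalises array distributions, so a shift of most genes would not be seen, and the number of arrays limits precision. Of 45101 probe sets 64 controls were left out. Log2 intensities entered limma 3.58.1 (R 4.3.3; group only, 4 residual degrees of freedom), two-sided, with Benjamini-Hochberg adjustment over 45037 probe sets. A second fit took the brightest probe set of each of 18193 genes, for the lists (145 of 163 entries measured). Of 34945 probe sets with 1 symbol, 34741 matched the RefSeq table. The code was tested on simulated data.

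Named genes are all members, Nfe2l2, up to 4 genes with the smallest p of each list, and the 8 nearest profiles; exceptions are stated. Members and lists were chosen with earlier results of these data known. Probe sets of 1 gene counted as discordant where log2 fold changes differed by over 1. Alternatives were log2(value + 16), a mean intensity of at least 50, trend and robust variances, array weights, further quantile normalization, 1 probe set per gene, the replicate block and each array left out. Deviations of same-numbered arrays correlated at 0.04, 0.16 and 0.08, so the numbers were not taken as pairs.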

Additional observations from a re-analysis of the deposited data

How the results depend on the processing

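The 7 calls among the 9 probe sets were made under each of the 12 alternatives that did not reduce the table to 1 probe set per gene. Of these, the mean intensity of at least 50 left 8 member probe sets, without the dimmer one of Krtap6-3. A further call, Krtap8-1, was made under an intensity trend and robust variances. With 1 probe set per gene, where 6 member probe sets were left, 5 were called. All 113 member values under the alternatives kept their direction, and 112 moved by less than the residual SD, the exception being Krtap6-3 with log2(value + 16). Probe sets called lower over the whole array, 285, were 428 with log2(value + 16), 453 with a mean intensity of at least 50, 610 with the trend and 177 with the replicate block. They ran from 79 to 270 with 1 array left out, and those called higher, 470, from 280 to 354. The block left 7 member probe sets called and gave 342 probe sets called higher. Of the caNrf2 arrays, replicates 2 and 3 correlated best with the control of their own number, while replicate 1 correlated at 0.07 with control replicate 3 and at 0.04 with control replicate 1. Lower genes over the 6 hair lists, 22, were 40 with the trend, 34 with array weights, and 14 to 36 with 1 array left out; higher ones, 2, were 1 with the intensity minimum, which removes Krtap31-1. Of the 144 counts of single hair lists under alternatives, 115 stayed within 1.5 times, 9 were smaller and 20 larger. The cause of these shifts was not tested. Signal near background limits both Krtap6-3 probe sets.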
